A study of Homo sapiens with 4 samples.

Results

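TRiC, also called CCT, is the chaperonin of the cytosol, and the mRNAs of its 8 subunits are described here in human lymphoma cells labelled control or GNA13-deficient. The members were the rows of the deposited expression table that carried the symbols TCP1, CCT2, CCT3, CCT4, CCT5, CCT6A, CCT7 and CCT8. All 8 were found among the 25066 genes of the table, and all 8 were among the 16945 genes tested. As background, TRiC is a pair of stacked rings, each built from 8 different but related subunits, that closes over an unfolded protein and releases it folded as ATP is hydrolysed. Its best known clients are actin and tubulin, and it also folds WD40 β-propeller proteins, among them the β subunits of heterotrimeric G proteins and the mTOR partner mLST8. Prefoldin hands it newly made actin and tubulin, and phosducin-like proteins work with it on Gβ and other clients. TCP1, CCT4, CCT2 and CCT5 lie next to each other on the side of the ring that binds ATP most tightly, and CCT7, CCT8, CCT6A and CCT3 form the other side.

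The cells were NUDUL1, an established human diffuse large B cell lymphoma line of the germinal center B cell type, engineered with doxycycline-inducible Cas9 and transduced with the thromboxane receptor Tbxa2r, which couples to Gα13. Cells with a control sgRNA and cells with a sgRNA against GNA13, the gene of Gα13, were both treated with 10 nM U46619, a stable thromboxane A2 analog, for 24 h. The question of the comparison was how expression differed with and without Gα13 while its receptor was stimulated, and no untreated cells were compared here. There were 2 libraries of bulk poly(A) RNA for each genotype, from treatments done in duplicate with 1 sgRNA per genotype, so p values measure only the spread between these samples, which may be technical. In bulk RNA, fewer cells of a kind and less RNA per cell cannot be told apart.

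The deposited values were normalized reads on the log2 scale, on which a difference of 1 is a doubling. The total of mapped reads was between 29209544 and 31537955 per library, and 3 reads corresponded to a log2 value between 1.56 and 1.69. GNA13 itself had log2 values of 12.46 and 12.45 in the control libraries against 13.10 and 13.11 in libraries labelled GNA13-deficient, a difference of 0.65 (SE 0.05, adjusted p = 0.00214 from limma). GNA13 mRNA was thus higher, not lower, under the label of the disrupted gene, and directions given here rest on the labels. Reads of a GNA13 pseudogene could be counted with those of GNA13, which was not tested. The B cell markers MS4A1, CD79A, CD79B and PAX5 had log2 values between 12.83 and 14.33, and the T cell markers CD3D and CD3E were listed at 0 in the 4 libraries. CD4, at 6.87 and 7.43 in control against 3.62 and 2.43 in libraries labelled GNA13-deficient, and LYZ, at 6.40 and 6.35 against 3.50 and 4.19, were lower in the latter, as was CD8A, at 2.35 and 2.30 against 0 and 0. COL1A1, a fibroblast marker, was at 3.02 and 1.98 against 3.94 and 3.10 and did not pass the test, COL1A2 was at or near 0, and the myeloid marker CD14 was at 0.98 or less. The part of these genes in the values below was not tested.

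The TRiC genes lie apart from each other in the genome. In GRCh37, the build of the deposited values, the canonical transcripts span chr6:160199530-160210634 for TCP1, chr12:69979239-69995350 for CCT2, chr1:156278759-156308083 for CCT3 and chr2:62095220-62115791 for CCT4. Those of the other members span chr5:10250392-10266501 for CCT5, chr7:56119458-56131682 for CCT6A, chr2:73461436-73480133 for CCT7 and chr21:30428647-30445969 for CCT8. TCP1, CCT3, CCT4 and CCT8 are read from the minus strand and the others from the plus strand. Their mRNAs have 11 to 16 exons and coding lengths between 1593 and 1668 bases.

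Letters upstream of the start are shown for the 3 subunits that passed the test below, since the subunits are made for 1 complex from separate promoters. The sequences are from RefSeq (GRCh38.p14), 5′ to 3′ on the strand of the gene, and hold only letters outside annotated exons. Capitals mark the CCAAT box, the GC box GGGCGG and the ETS core CTTCCG, read on either strand, and no marked motif overlaps another.
TCP1, chr6:159789704-159789811, minus strand, positions -209 to -102 from the start: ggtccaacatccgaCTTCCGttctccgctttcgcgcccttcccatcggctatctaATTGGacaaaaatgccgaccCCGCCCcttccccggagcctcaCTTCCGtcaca
CCT3, chr1:156338293-156338502, minus strand, ending at the base before the start: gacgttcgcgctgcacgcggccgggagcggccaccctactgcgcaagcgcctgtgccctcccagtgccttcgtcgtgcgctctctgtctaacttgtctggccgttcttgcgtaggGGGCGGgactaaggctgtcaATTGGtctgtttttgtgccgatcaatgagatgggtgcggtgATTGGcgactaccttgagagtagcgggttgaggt
CCT5, chr5:10250447-10250536, plus strand, ending at the base before the start: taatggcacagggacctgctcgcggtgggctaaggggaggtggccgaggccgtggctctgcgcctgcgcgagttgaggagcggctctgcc
The stretch of TCP1 held all 3 kinds of motif, that of CCT3 held CCAAT and GGGCGG, and that of CCT5 held none of them. Over the 250 bases upstream, 7 of the 8 genes had an entry, and CCAAT and GGGCGG were each found in 4 of them, CCT3, TCP1, CCT2 and CCT8, against 32% and 42.6% of 35116 promoters of the same length. CTTCCG was found in CCT7, CCT5, TCP1 and CCT2, against 16.5% of promoters. GAANNTTC, a pair of heat shock element units that the heat shock factor HSF1 can bind, was found in TCP1 and CCT2, against 5.78% of promoters. Both matches lie in letters of annotated exons, and that of TCP1 is not shown for this reason. In CCT2 the match was only in the entry at chr12:69585639-69585888. That entry lies downstream of the other CCT2 entry, at chr12:69585209-69585458, in which the motif was not found. Neither TTCNNGAA nor the E-box CACGTG was found in any of the 7, against 6.62% and 6.34% of promoters. The 7 genes had 9 entries, and a gene was counted if any of its entries held the motif, while the shares of promoters are per entry. A match describes the letters only.

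Of the TRiC mRNAs, TCP1, CCT3 and CCT5 rose in libraries labelled GNA13-deficient, to 1.42, 1.26 and 1.27 times their control levels. CCT2, CCT4, CCT7 and CCT8 had higher means, between 1.09 and 1.22 times control, and did not pass the test, and CCT6A had a lower mean, at 0.893 times control. Of the 8 subunits, 3 (37.5%) were called higher and 0 lower by limma at an adjusted p under 0.05, where 13.1% of all genes tested were called higher and 16.6% lower, 29.7% in all. At an unadjusted p under 0.05, 5 subunits were higher and 0 lower, and limma's voom on recovered reads called 5 higher and 1, CCT6A, lower. The 2 libraries of the GNA13-deficient label exceeded both control libraries for 7 subunits, where 31.3% of all genes tested did so, and lay below both for CCT6A, where 34% did. The median difference of the 8 was 0.27, against -0.02 for all genes tested. Among the 253 genes with a mean at or above that of the lowest subunit, 27.3% were called higher and 5.14% lower, and their median difference was 0.125 (SD across genes 0.373).

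The size of the shift depended on the scaling between libraries. GAPDH, named as a scaling reference, differed by 0.487 (SE 0.13, adjusted p = 0.0502 from limma), more than each subunit except TCP1. It was called higher with quantile normalization (0.41, adjusted p = 0.011) and with median centring (0.695, adjusted p = 0.0314). With the scaling as deposited, GAPDH was also called with a filter at the median level (adjusted p = 0.00584). The same held with either pseudocount, a replicate block or a robust variance prior, and for voom (0.44, adjusted p = 0.00422). With quantile normalization the median of the 8 subunits was 0.09 and that of all genes 0.07, so that the gap between them went from 0.298 to 0.0219. TCP1 and CCT3 were then called higher, CCT6A was called lower and CCT8 turned to -0.07. Centring each library on its median moved the median of all genes to 0.18 and that of the subunits to 0.48, so the gap was again 0.298. TCP1, CCT2, CCT3, CCT4, CCT5, CCT7 and CCT8 were then called higher and CCT6A turned to 0.04. Centring adds the same amount to the difference of every gene. Of the 16945 genes tested, 4311 were called higher with it, against 2218 as deposited. With any 1 library left out, limma called 0 genes of the whole table, members included, with 5257 to 5600 genes at an unadjusted p under 0.05. The signs of the 8 differences did not change then, and TCP1 lay between 0.47 and 0.55 and CCT6A between -0.21 and -0.11.

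**Figure D1:**
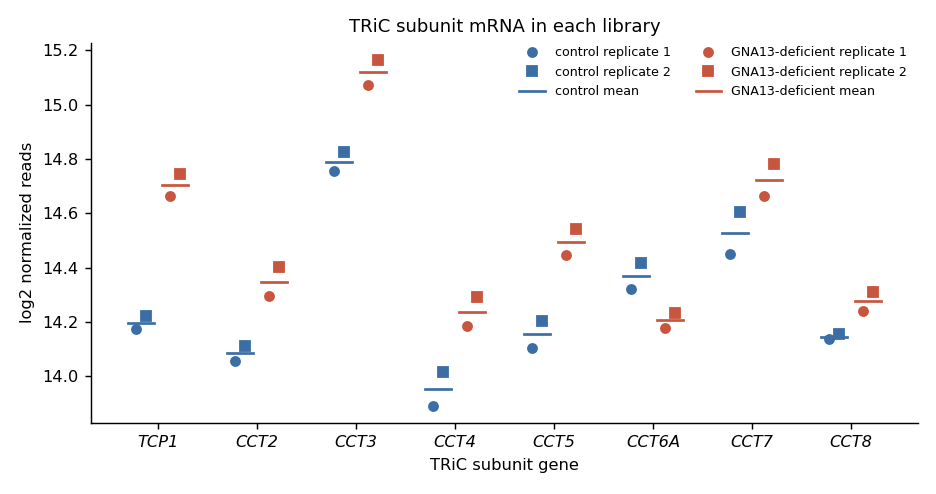
Normalized reads on the log2 scale for the 8 TRiC subunit genes in the 4 libraries, with a point per library and a bar at each mean of 2. The points labelled GNA13-deficient lie above both control points for 7 subunits and below them for CCT6A, on the deposited scale; levels of different genes are not per length here.

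On the side of the ring that binds ATP most tightly, TCP1 (CCT1), the subunit for which the complex is named, had log2 values of 14.17 and 14.22 in control against 14.66 and 14.75 in libraries labelled GNA13-deficient. The genotypes stood clear of each other, and the gap between them was several times the gap within either. The difference was 0.51 (SE 0.07, adjusted p = 0.00822 from limma), which lay above 85.56% of the differences of all genes tested, and it was called under 9 of the 10 alternatives that kept all 4 libraries. Without the filter on low values its adjusted p was 0.0604. In recovered reads, TCP1 had 18153 and 19409 in control against 25299 and 25561 in libraries labelled GNA13-deficient.

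CCT5, a subunit that can form rings by itself in vitro and is mutated in a hereditary sensory neuropathy, had log2 values of 14.11 and 14.20 in control against 14.45 and 14.54 in libraries labelled GNA13-deficient. The genotypes did not overlap, and the difference of 0.34 (SE 0.08, adjusted p = 0.0297 from limma) was a rise to 1.27 times the control level. With quantile normalization it was 0.12 (SE 0.06) and did not pass the test (adjusted p = 0.154), nor did it without the filter on low values or without the variance trend (adjusted p = 0.127 and 0.0986).

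CCT4 and CCT2 had differences of similar size that did not pass the test on the deposited scale. CCT4 had log2 values of 13.89 and 14.02 in control against 14.18 and 14.29 in libraries labelled GNA13-deficient, a difference of 0.28 (SE 0.08, adjusted p = 0.0556 from limma). CCT2, which has also been described as an autophagy receptor for aggregates, had 14.06 and 14.11 against 14.29 and 14.40, a difference of 0.26 (SE 0.07, adjusted p = 0.0523 from limma). Neither gene overlapped between genotypes, and both passed the test under 7 of the 10 alternatives that kept all 4 libraries. With quantile normalization CCT4 was at 0.0989 (adjusted p = 0.277) and CCT2 at 0.0565 (adjusted p = 0.493).

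On the other side of the ring, CCT3 had log2 values of 14.76 and 14.83 in control against 15.07 and 15.16 in libraries labelled GNA13-deficient. The genotypes did not overlap. The difference was 0.33 (SE 0.08, adjusted p = 0.0381 from limma), a rise to 1.26 times the control level, and it was called with quantile normalization too. Without the filter on low values or without the variance trend it did not pass the test (adjusted p = 0.165 and 0.0961).

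CCT7 and CCT8, on the same side, had the smallest deposited-scale differences of the 7 subunits with a higher mean, while with quantile normalization CCT2 at 0.0565 was below CCT7 at 0.0811. CCT7 had log2 values of 14.45 and 14.60 in control against 14.66 and 14.78 in libraries labelled GNA13-deficient, so that the higher control library came close to the lower of the others. Its difference of 0.195 (SE 0.09) did not pass the test (adjusted p = 0.18 from limma). CCT8 had 14.14 and 14.16 against 14.24 and 14.31, and its difference of 0.13 (SE 0.07) did not pass it either (adjusted p = 0.21), and turned to -0.07 with quantile normalization.

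CCT6A (CCT6, the zeta subunit) stood apart from the other 7. Its log2 values were 14.32 and 14.42 in control against 14.18 and 14.23 in libraries labelled GNA13-deficient, and both of the latter lay below both of the former. The difference was -0.16 (SE 0.07), a level of 0.893 times control, and it did not pass the test (adjusted p = 0.16 from limma). With quantile normalization it was -0.36 (adjusted p = 0.00688) and was called lower, and with each library centred on its median it was 0.04 (adjusted p = 0.733). Recovered reads of CCT6A were 20114 and 22264 in control against 18063 and 17925 in libraries labelled GNA13-deficient.

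**Figure D2:**
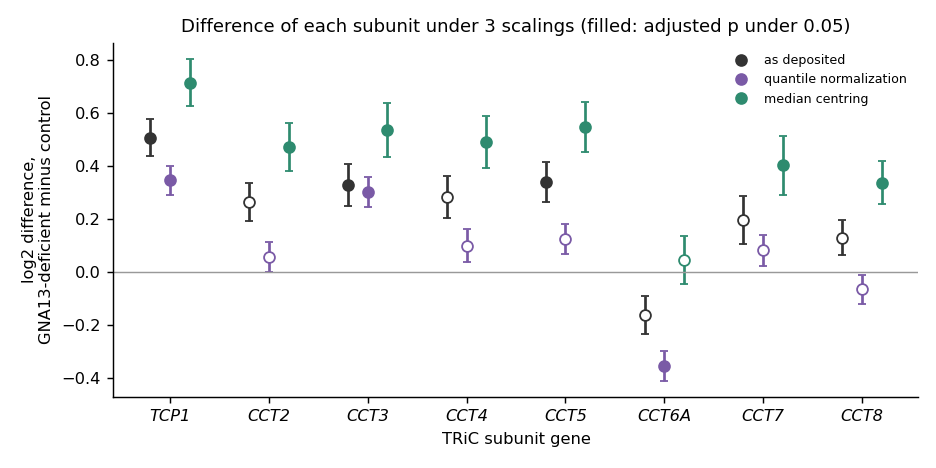
Differences of the 8 subunits on the log2 scale (libraries labelled GNA13-deficient minus control) with their standard errors from limma, under 3 scalings of the libraries; filled points had an adjusted p under 0.05. TCP1 and CCT3 were called higher under all 3, while CCT6A was -0.16 as deposited, -0.36 with quantile normalization and 0.04 with median centring, and CCT8 was -0.07 with quantile normalization.

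Relations among the subunits within a library do not depend on a factor that scales the whole library. TCP1 minus CCT6A on the log2 scale was -0.15 and -0.20 in control against 0.49 and 0.51 in libraries labelled GNA13-deficient and so was higher in both of the latter. This pair was chosen after its values were seen, so no test is given. Against the mean of the 8 subunits in the same library, TCP1 was -0.06 and -0.10 in control against 0.20 and 0.19 in libraries labelled GNA13-deficient. By the same measure CCT6A went from 0.08 and 0.10 to -0.29 and -0.32, and CCT5 from -0.13 and -0.12 to -0.02 and -0.02. CCT8 was -0.10 and -0.16 in control and -0.23 and -0.25 in the others. The group means of CCT2, CCT4 and CCT7 by this measure differed by 0.03, 0.05 and -0.04, while CCT3 went from 0.52 and 0.51 to 0.61 and 0.61. The mean includes each subunit itself, so the deviations of the 8 cancel within a library. Falls against the mean are thus matched by rises of others, and these shifts are not separate observations.

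**Figure D3:**
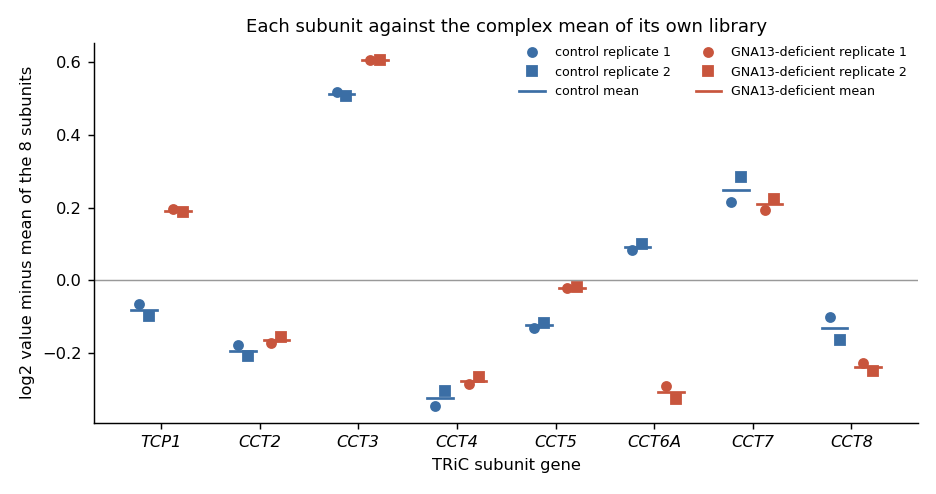
Each subunit's log2 value minus the mean of the 8 subunits in the same library, with a point per library and a bar at each mean of 2. TCP1 lies below the mean in both control libraries and above it in both libraries labelled GNA13-deficient, and CCT6A does the reverse. The values are not per length, so the side of the mean on which a subunit lies depends on transcript lengths, while its difference between genotypes does not. The deviations of the 8 cancel within a library, so they are not independent of each other.

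As shares of reads, the 8 genes together took 0.528% (95% Wilson interval 0.525 to 0.531%) and 0.536% (0.534 to 0.539%) of mapped reads in control. In libraries labelled GNA13-deficient they took 0.599% (0.597 to 0.602%) and 0.619% (0.616 to 0.622%). These intervals cover counting error only. CCT6A made up 13.0% and 13.2% of the TRiC reads in control and 10.0% and 9.76% in the others, and TCP1 made up 11.8% and 11.5% against 14.0% and 13.9%.

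Subunits were ranked by level per kilobase of the canonical transcript. The values of subunits against each other or their mean and the shares of reads given above were not corrected for length. On that scale CCT3 came first and CCT7 second in each of the 4 libraries, and CCT5, whose transcript of 3293 bases is the longest of the 8, came last. CCT3 per kilobase had log2 levels of 13.77 and 13.84 in control against 14.09 and 14.18 in libraries labelled GNA13-deficient, above CCT7 at 13.57 and 13.72 in control and 13.78 and 13.90 in the others. TCP1 went from the sixth place in both control libraries to the third place in both others, CCT6A from the fifth to the seventh, and CCT8 from the third to the fifth. The order was the same in both libraries of each genotype, while the values of some neighbours overlapped across the 2 libraries. In control, CCT6A per kilobase was at 12.95 and 13.05 and TCP1 at 12.94 and 12.99. In libraries labelled GNA13-deficient, TCP1 at 13.43 and 13.51 overlapped CCT2 at 13.36 and 13.46, CCT2 overlapped CCT8 at 13.35 and 13.42, and CCT6A at 12.81 and 12.87 overlapped CCT5 at 12.73 and 12.82. The remaining neighbours did not overlap within a genotype. The subunits spanned 2.57 to 2.61 times from lowest to highest per kilobase in each library, and the SD of their log2 levels was 0.455 and 0.454 in control and 0.475 and 0.482 in the others. The orders depended on the length used. Per kilobase of coding sequence CCT5 was not last but at the sixth place in 1 control library and the fourth in the other 3 libraries, and TCP1 went from the fourth and the fifth place to the third in both others. On that scale CCT3 and CCT7 again came first and second, and CCT6A went from the third place in both control libraries to the seventh and the eighth.

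Counting of several members can be affected by other genes. The last exons of TCP1 overlap ACAT2, the gene of a cytosolic thiolase, read from the other strand, over 454 of 2352 exon bases (19.3%). ACAT2 was at 10.97 and 11.04 in control against 11.94 and 12.07 in libraries labelled GNA13-deficient, a difference of 1.00 (SE 0.07, adjusted p = 0.0017 from limma). It had 1970 and 2139 reads in control and 3832 and 4005 in the others. Whether the counting used strand is not given in the sources used here, and the part of ACAT2 in the TCP1 value was not tested. For CCT5, 52.7% of exon bases overlap a long non-coding RNA annotated on the other strand. Such RNAs also overlap 11.6% and 7.62% of the exon bases of CCT4 and 4.58% of those of CCT8.

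Near-identical copies are a further limit for 4 members. Of all stretches of 50 bases in the canonical transcript, 8.29% of TCP1, 7.61% of CCT6A, 13% of CCT8 and 3.05% of CCT5 were also found in transcripts of other genes, mostly pseudogenes. CCT2, CCT3, CCT4 and CCT7 had 0 shared stretches. CCT6P1, a pseudogene of CCT6A named here after its values were seen, was at 8.42 and 7.48 in control against 7.86 and 7.11 in libraries labelled GNA13-deficient, so the genotypes overlapped.

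Genes that start within 1000 bases of a subunit on the other strand were read as neighbours. MRPL18, a mitochondrial ribosomal protein gene 865 bases from the start of TCP1, rose by 0.28 (SE 0.06, adjusted p = 0.03 from limma). ATPSCKMT, which encodes a lysine methyltransferase of mitochondrial ATP synthase and starts 392 bases from CCT5, rose by 0.42 (SE 0.10, adjusted p = 0.0319). PSPH, the last enzyme of serine synthesis, starts 321 bases from CCT6A and differed by -0.07 (SE 0.05, adjusted p = 0.386), and TSACC, 234 bases from CCT3, was at 4.42 and 4.30 against 5.25 and 4.86 (adjusted p = 0.168).

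By profile over the 4 libraries, the nearest genes to the median subunit among 8473 genes of at least median level were BCKDK, VPS37B, LDHB, PSMA3 and HNRNPC. Their Euclidean distances were 0.00777, 0.0143, 0.0174, 0.0196 and 0.024. For comparison, the distance was 0.0221 for CCT4, the nearest member, 0.235 for TCP1 and 0.441 for CCT6A. With 4 libraries such a profile is set mainly by the size of the genotype difference.

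Genes that work with TRiC were read from lists of related genes, beside the same shares of all genes tested, 13.1% called higher and 16.6% lower. The calls of GNB4, TUBA8, TBCA, HSPH1, HSPE1, GRPEL2 and MYC held under the 10 alternatives that kept all 4 libraries, except that TUBA8 was too low to enter the filter at the median level, and the other calls named in these lists were lost without the filter on low values, without the variance trend or under both. Prefoldin, the 6-subunit complex that delivers actin and tubulin to TRiC, had 3 subunits called higher and 1 lower. VBP1 (prefoldin 3) had 11.78 and 11.95 in control against 12.30 and 12.51 in libraries labelled GNA13-deficient, a rise of 0.54 (adjusted p = 0.018 from limma). PFDN2 rose by 0.44 (adjusted p = 0.00637) and PFDN1 by 0.27 (adjusted p = 0.0219), while PFDN6 fell by 0.28 (adjusted p = 0.02). With median centring PFDN6 was at -0.08 (adjusted p = 0.388) and 0 prefoldin genes were called lower. PFDN4 and PFDN5 differed by 0.07 and -0.28, with overlapping libraries. The median over prefoldin was 0.17, and it was 0.20 with quantile normalization and 0.38 with median centring.

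Of the 3 phosducin-like co-chaperones, 0 passed the test by limma, while 1, PDCL3, had an unadjusted p under 0.05 and was called by voom. PDCL3 was also called higher with quantile normalization, median centring, the filter at the median level, either pseudocount, a replicate block and a robust variance prior. PDCL, which assists the folding of Gβ with Gγ, had 10.05 and 10.08 in control and 9.99 and 10.03 in the others (difference -0.05, adjusted p = 0.554). PDCL3 differed by 0.34 (adjusted p = 0.0549), and TXNDC9 by 0.165 (adjusted p = 0.343). Of the proteins that resemble TRiC subunits, 5 of 6 were tested, and BBS10, a chaperonin-like protein of the cilium pathway, fell by 0.62 (adjusted p = 0.0191), a call lost under 4 of the 10 alternatives that kept all 4 libraries, among them quantile normalization (-0.43, adjusted p = 0.0608) and median centring (-0.42, adjusted p = 0.0643). CCT6B, the testis form of CCT6, was low, at 6.79 and 7.26 in control and 6.27 and 6.32 in the others (adjusted p = 0.0664). It was called lower with a pseudocount of 1, a replicate block, a robust variance prior and voom. MKKS differed by 0.05 and BBS12 by -0.02, CCT8L1P was at or near 0, and CCT8L2 was listed at 0 in each library.

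Among clients, 17 of 18 actin and tubulin genes were tested, 4 were called higher and 3 lower, and the median was 0.18. TUBA1B, an abundant α-tubulin, had 15.10 and 15.23 in control against 16.14 and 16.16 in libraries labelled GNA13-deficient, a rise of 0.98 (SE 0.10, adjusted p = 0.00339 from limma). TUBB3 rose by 0.75 (adjusted p = 0.00909) and TUBB4B by 0.74 (adjusted p = 0.00864). The 3 that fell were TUBA8 at -1.32, TUBE1 at -0.82 and TUBB2B at -0.31. TUBE1 was not called with quantile normalization (-0.46, adjusted p = 0.0652), nor TUBB2B with median centring (-0.10, adjusted p = 0.307). The actin genes ACTB and ACTG1 differed by 0.37 (SE 0.18, adjusted p = 0.205) and 0.62 (SE 0.17, adjusted p = 0.0538) and did not pass the test. Among the 10 alternatives that kept all 4 libraries, ACTG1 was called higher under 8 and ACTB under 3. Tubulin genes are near copies of each other, so reads may be split between them.

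Of 14 WD40 and other clients, 4 were called higher and 3 lower. The balance moved with the processing, to 4 and 6 with quantile normalization, 6 and 2 with median centring and 3 and 5 by voom. CDC20, the WD40 activator of the anaphase-promoting complex, rose by 0.84 (adjusted p = 0.00337 from limma), WRAP53, a telomerase cofactor gene that overlaps another gene on the other strand, by 0.70 (adjusted p = 0.00762) and the kinase PLK1 by 0.43 (adjusted p = 0.0124). GNB4, a Gβ subunit, fell by 0.54 (adjusted p = 0.00329), STAT3 by 0.42 (adjusted p = 0.00734) and VHL by 0.37 (adjusted p = 0.0479). The call of VHL was lost with median centring (-0.16, adjusted p = 0.226), without the filter on low values and without the variance trend. GNB1, another Gβ subunit, had 14.42 and 14.46 in control and 14.29 and 14.31 in the others (difference -0.14, adjusted p = 0.188). With quantile normalization (-0.31, adjusted p = 0.0091 from limma), by voom and with a replicate block, GNB1 was called lower. With median centring it was at 0.07 (adjusted p = 0.558). MLST8 differed by 0.17 (adjusted p = 0.311), and RPTOR, its mTORC1 partner, by -0.26 (adjusted p = 0.0502). RPTOR was called lower with quantile normalization (-0.28, adjusted p = 0.0322) and by voom (-0.31, adjusted p = 0.0181). The filter at the median level, either pseudocount, a replicate block and a robust variance prior also gave that call.

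The tubulin cofactors take over from TRiC to join α- and β-tubulin. TBCA, which holds β-tubulin, rose by 0.57 (adjusted p = 0.00331 from limma), with 12.92 and 12.90 in control against 13.45 and 13.50 in libraries labelled GNA13-deficient. TBCD rose by 0.27 (adjusted p = 0.0224). TBCB, TBCC, TBCE and ARL2 did not pass the test and differed by 0.04, -0.24, 0.02 and -0.15.

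Other chaperone systems and the proteasome were read the same way. In the cytosolic HSP70 and HSP90 system, 6 of 19 tested genes were called higher and 0 lower, with a median of 0.24. The largest rises were in HSPH1, an HSP70 exchange factor, at 0.96 (SE 0.07, adjusted p = 0.00205 from limma), in HSP90AA1, the inducible HSP90, at 0.77 (adjusted p = 0.0105) and in DNAJB1, an HSP40, at 0.62 (adjusted p = 0.00597). Of 8 mitochondrial chaperones, 5 were called higher and 0 lower, with a median of 0.38. The mitochondrial chaperonin, a relative of TRiC with HSPD1 as its ring and HSPE1 as its lid, rose by 0.44 (adjusted p = 0.0253) and 0.495 (adjusted p = 0.00509), and GRPEL2 by 0.46. The proteasome, another large cytosolic complex, had 16 of 31 subunit genes called higher and 0 lower and a median of 0.25, led by PSMA7 at 0.57, PSMA6 at 0.55 and PSMD14 at 0.52. In these 3 lists limma also gave 0 lower genes at an unadjusted p under 0.05, and voom called 0 lower. Quantile normalization left medians of 0.22, 0.26 and 0.15 for these 3 lists, against 0.09 for the TRiC subunits.

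Of 4 regulators that have been tied to TRiC genes, 2 were called lower and 0 higher, with the same counts at an unadjusted p under 0.05, by voom and with quantile normalization. With median centring 1 was called lower, and the median of the 4 went from -0.25 to -0.05. MYC had log2 values of 13.79 and 13.77 in control against 13.22 and 13.23 in libraries labelled GNA13-deficient, a fall of 0.55 (adjusted p = 0.00358 from limma). HSF1 fell by 0.38 (SE 0.05, adjusted p = 0.00745), a call lost with median centring (difference -0.18, adjusted p = 0.0911) and without the variance trend (adjusted p = 0.0616), and HSF2 and ZNF143 differed by -0.08 (adjusted p = 0.495) and -0.12 (adjusted p = 0.376). These are mRNA levels of the factors.

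**Figure D4:**
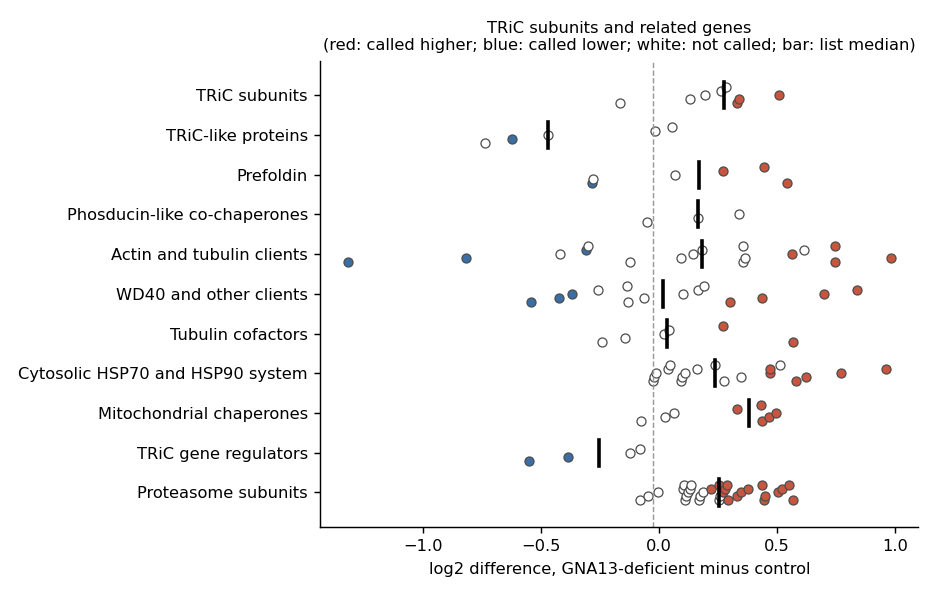
Log2 differences (libraries labelled GNA13-deficient minus control, as deposited) of the genes in the TRiC list and 10 related lists, with a point per tested gene, a bar at each list's median and a dashed line at the median of all genes tested, -0.02. Red points were called higher and blue points lower by limma; TRiC, the tubulin cofactors, the cytosolic HSP70 and HSP90 system, the mitochondrial chaperones and the proteasome hold red and no blue points, and the regulators hold 2 blue and no red points.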

How the data were processed

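Gene expression was measured by RNA sequencing of 2 control libraries and 2 libraries labelled GNA13-deficient. Per the paper's methods, poly(A) libraries were made with a stranded kit and reads were aligned to hg19 with STAR. The submitters' processing notes name HTSeq. The authors deposited normalized reads on the log2 scale, with a row of total mapped reads on a linear scale. The method of normalization is not given in the sources used here. The methods and the labels give different read lengths, on which the values used here do not depend.

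The log2 values were used as deposited. Their low values step in whole reads, so reads were recovered (all values up to 400 reads came out whole to within the rounding of the file), and used for depth, shares and 1 alternative. Of the columns, 0 were left unmapped. Genes above 0 in at least 2 libraries were fitted with limma 3.58.1 in R 4.3.3 (lmFit, eBayes with a mean-variance trend, genotype as the only term, 2 residual degrees of freedom), with Benjamini-Hochberg adjustment over the 16945 genes and a threshold of 0.05. A called gene passed it. No pseudocount was added. Rows were matched by Entrez number, since TUBB4B, MLST8, RPTOR, ATPSCKMT and TSACC carry older symbols. Positions and lengths were from GENCODE (GRCh37) and promoter letters from RefSeq (GRCh38.p14). CCT6A had no promoter entry.

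The members and lists were chosen with earlier results of these data known, so no test over a list is given. Named were the members, GNA13, GAPDH (16.09 and 16.29 in control, 16.61 and 16.74 in the others, adjusted p = 0.0502), all prefoldin, phosducin-like, chaperonin-like, tubulin cofactor and regulator genes, up to 3 called rises and 3 called falls in each longer list, 7 further genes set by name, start-site neighbours and the 5 nearest profiles. CCT6P1 and ACAT2 were added after their values were seen. Motifs were searched on both strands of the 250 bases upstream. Alternatives were other filters, pseudocounts, scalings, variance models, a replicate block, voom on recovered reads and leaving out each library. The script was tested on simulated data.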

Additional observations from a re-analysis of the deposited data

How the results depend on the processing

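Of the 10 alternatives that kept all 4 libraries, no variance model, filter, pseudocount or voom fit turned the direction of a TRiC subunit, and the cause of each change below was not tested. Without the filter on low values, 1999 genes were called (815 higher, 1184 lower), 1885 of them shared with the 5037, and 0 TRiC subunits, with TCP1 at 0.51, CCT3 at 0.33 and CCT5 at 0.34 no longer past the threshold. Called members were then 2 of prefoldin, 1 of the actin and tubulin list, 3 of the WD40 list, 1 of the HSP70 and HSP90 system, 3 mitochondrial chaperones and 3 proteasome subunits. Without the variance trend, 2718 genes were called (986 higher, 1732 lower) and 1 TRiC subunit, TCP1, with CCT3 at 0.33 and CCT5 at 0.34 not past the threshold. Called members were then 0 of prefoldin, 3 of the actin and tubulin list, 2 of the WD40 list, 2 mitochondrial chaperones and 2 proteasome subunits. A filter at the median level gave 1854 lower calls, 5 TRiC subunits higher with CCT2 at 0.26 and CCT4 at 0.28 now past the threshold, and an actin and tubulin median of 0.36. Pseudocounts of 1 and 10 and a robust variance prior each gave the same 5 subunits, with CCT2 at 0.26 and CCT4 at 0.28.

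Median centring gave 4311 higher calls among 6235, against 2218 higher and 2819 lower as deposited. It gave 7 TRiC subunits higher and a median of 0.48, with CCT2 at 0.47, CCT4 at 0.49, CCT7 at 0.40, CCT8 at 0.34 and CCT6A turned to 0.0445. List medians became 0.38 for prefoldin, 0.39 for actin and tubulin, 0.23 for the WD40 list, 0.45 for the HSP70 and HSP90 system (11 called), 0.59 for mitochondrial chaperones and 0.46 for the proteasome. BBS12 (0.19), PDCL (0.16), GNB1 (0.0705), ARL2 (0.062), HSF2 (0.13), ZNF143 (0.0855) and PSPH (0.14) changed sign. Quantile normalization gave 1 subunit lower, CCT6A at -0.36, turned CCT8 to -0.0658, took CCT5 at 0.12 below the threshold and gave medians of 0.09003 for TRiC, 0.26 for mitochondrial chaperones and 0.15 for the proteasome, and BBS12 (0.35) and HSF2 (0.0266) changed sign. Voom on recovered reads called 5 subunits higher and 1 lower, with CCT2 at 0.21, CCT4 at 0.23 and CCT6A at -0.21, 11 actin and tubulin genes, and a mitochondrial chaperone median of 0.33, and TBCB (-0.00616) and TBCE (-0.0285) changed sign.

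With the replicate number as a replicate block, 6616 genes were called, 6 TRiC subunits higher and 1 lower, with CCT2 at 0.26, CCT4 at 0.28, CCT7 at 0.195 and CCT6A at -0.16 now past the threshold, and 11 actin and tubulin genes and 10 of the HSP70 and HSP90 system were called. Deviations of same-numbered libraries from their group means correlated at 0.453 across 8473 genes, but with 2 pairs, and no source that ties them, the libraries share only a number.

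Leaving out each library in turn left 1 residual degree of freedom, a lone sample being assumed to vary like the other group, and each fit called 0 genes, higher or lower, and so 0 TRiC subunits and 0 members of the prefoldin, actin and tubulin, WD40, HSP70 and HSP90, mitochondrial and proteasome lists. Differences then ranged from 0.467 to 0.55 for TCP1, 0.2095 to 0.3175 for CCT2, 0.2835 to 0.3745 for CCT3, 0.2215 to 0.3455 for CCT4, 0.2915 to 0.3885 for CCT5, -0.2125 to -0.1145 for CCT6A, 0.119 to 0.271 for CCT7 and 0.0945 to 0.1655 for CCT8. Medians ranged from 0.2192 to 0.3277 for TRiC, 0.1145 to 0.2215 for prefoldin, 0.1225 to 0.2455 for actin and tubulin, -0.06075 to 0.1165 for the WD40 list, 0.132 to 0.2955 for the HSP70 and HSP90 system, 0.3542 to 0.387 for mitochondrial chaperones and 0.196 to 0.327 for the proteasome. Differences that changed sign ranged from -0.9585 to 0.0185 for CCT8L1P, -0.0015 to 0.1105 for MKKS, -0.238 to 0.204 for BBS12, -0.03 to 0.161 for PFDN4, -0.041 to 0.082 for TBCE, -0.293 to 0.001 for ARL2 and -0.9375 to 0.0005 for CCT6P1. Depth was no limit for the subunits, which had 14950 reads or more in each library.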
